A study of Mus musculus with 9 samples.

Results

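C2, C3 and C4b encode 3 components of the complement system, and they were chosen by name from the kidney transcripts of young mice, old mice and old mice given 3-hydroxybutyrate (3HB). The members are 3 of the 489 distinct genes that the authors listed as changed, each gene counted once. Kidney RNA of 9 male ICR mice was sequenced. Young mice were 2 months old, old mice were 20 months old and received no 3HB, and the 3HB mice were also 20 months old but drank the sodium salt of 3HB (3HB-Na) at 1 g/L from 11 months of age, with 3 mice in each group. ICR is an outbred stock, so mice within a group are not genetically identical.

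Complement is a cascade of plasma proteins that tags microbes and dying cells for removal. In the classical and lectin pathways, C4 and C2 are cleaved one after the other, and the fragments assemble into the enzyme that cleaves C3. C3 is the point where all activation routes meet, and both C3 and C4 bind covalently to surfaces through an internal thioester. The liver makes most of the circulating protein, while tubular epithelium and macrophages of the kidney can also transcribe complement genes, and cytokines such as interferon-γ, interleukin-1 and interleukin-6 are known to raise their transcription.

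The deposited values are normalized levels with 2 decimals, and whether they are TPM or FPKM is not given in the sources used here. All differences below are between group means of log2(level + 1), with a standard error (SE) from the spread of the mice in both groups. They were tested with a two-sided exact permutation test, for which 3 mice against 3 cannot give a p below 0.1. Only genes that the authors listed as changed are in the tables, 389 for old against young mice and 113 for 3HB against old mice, with 13 genes in both. C4b was listed in both, C3 for age alone and C2 for 3HB alone. A difference in the contrast for which a gene was listed is therefore a description of a listed gene, and its p is not an independent test. The age and 3HB contrasts share the same 3 old mice. Total read counts are not given, so the depth behind each level is unknown.

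All 3 members lie on the minus strand of chromosome 17 (GRCm38, GENCODE release M21). C4b occupies chr17:34728380-34743882 and C2 occupies chr17:34862604-34898265, 118.722 kb apart in the class III region of the major histocompatibility complex, while C3 occupies chr17:57203970-57228136, 22305.7 kb beyond the end of C2. Of 42 genes of the class III region, C2 and C4b were the 2 listed in a table.

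**Figure D1:**
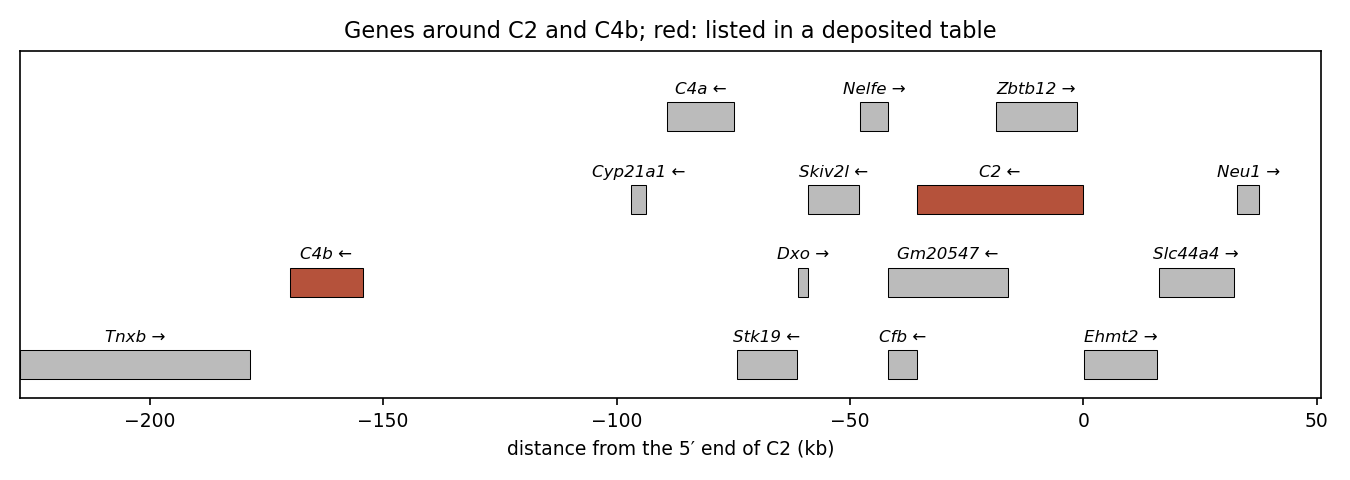
Genes around C2 and C4b, with distance from the 5′ end of C2 in kb on the x axis, each gene drawn to scale as a bar, and arrows for its strand. Rows only keep bars apart, red bars are the listed genes C2 and C4b, and C4a lies between them while Gm20547, Cfb and Zbtb12 lie at C2.

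Neighbouring copies limit how reads can be assigned to C4b and C2, and the sequences are shown for that reason. C4b has a close relative, C4a, at chr17:34809092-34823464 on the same strand, and their transcripts were identical at 96.1% of 5367 aligned bases. The stretch below covers 60 bases within exon 21 of 41 in both genes, at chr17:34735430-34735489 in C4b and chr17:34816086-34816145 in C4a, with capitals marking the 13 bases that differ.
C4b: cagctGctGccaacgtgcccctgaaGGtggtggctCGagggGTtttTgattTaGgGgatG
C4a: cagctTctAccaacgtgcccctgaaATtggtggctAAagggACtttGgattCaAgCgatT
Over the whole C4b transcript of 5379 bases, 432 of 5230 windows of 150 bases, the length of 1 sequencing read, also occur in C4a (8.26%). Most single reads from C4b therefore carry at least 1 base that tells the genes apart. C4a was not listed in either table.

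For C2, the overlap is larger. A transcript model on the same strand, Gm20547 (chr17:34856412-34882042), runs through Cfb, which encodes factor B of the alternative pathway, and into C2. Of the 2492 windows of 150 bases in the C2 transcript of 2641 bases, 1203 are shared with Gm20547 (48.3%). Zbtb12 overlaps 4.16% of the exonic bases of C2 on the opposite strand, and whether reads were counted by strand is not given in the sources used here. The C2 level is thus uncertain to the extent that reads were divided among these models. For C3, 0 of 4987 windows of its transcript of 5136 bases occurred in another gene's transcript.

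The RefSeq sequence upstream of C3 is given because C3 is the member for which the promoter table held an entry. It comprises the 250 bases before the start of the gene on the minus strand (GRCm38.p6, chr17:57228137-57228386), with capitals marking a match to the motif of C/EBP, a family of transcription factors active in the acute phase response.
C3: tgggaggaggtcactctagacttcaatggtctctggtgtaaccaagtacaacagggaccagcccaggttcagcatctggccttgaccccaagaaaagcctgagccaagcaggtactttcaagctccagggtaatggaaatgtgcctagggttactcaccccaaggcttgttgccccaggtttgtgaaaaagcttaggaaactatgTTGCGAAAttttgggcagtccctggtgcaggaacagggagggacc
The match lies 45 to 38 bases before the start. The motifs searched on both strands were C/EBP (TTGCNNAA), the interferon-γ activation site GAS (TTCNNNGAA), an interferon regulatory factor motif, TATAAA and the NF-κB motif, and the C/EBP letters alone were found in the C3 window. Among 32851 promoters of the same length, 9.56% held the C/EBP letters, 7.02% GAS, 2.98% the interferon regulatory factor motif, 12.4% TATAAA and 7.25% the NF-κB motif. A letter match describes the sequence and does not show that a factor binds there.

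C3 was low in every young kidney and much higher in old kidneys. Its level was 2.79, 2.36 and 1.42 in young mice 1 to 3, and 29.54, 9.36 and 37.97 in old mice 1 to 3. The groups did not overlap, although the old mice spread widely, with a highest level 4.06 times the lowest. The mean was 25.6 ± 14.7 (SD, n = 3) in old mice, 11.7-fold the 2.19 ± 0.701 (SD, n = 3) of young mice. On the log2 scale the difference was 2.88 (SE 0.62, exact permutation p = 0.1, the smallest possible). By size it ranked 72nd among the 271 genes of the age table that were higher in old mice.

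C4b followed with a smaller age difference. Its level was 8.47, 11.08 and 8.86 in young mice, and 52.31, 20.53 and 29.85 in old mice. Every old mouse was above every young mouse, and old mouse 1 stood highest. The means were 9.47 ± 1.41 and 34.2 ± 16.3 (SD, n = 3 each), a 3.61-fold ratio, and the log2 difference was 1.66 (SE 0.40, exact permutation p = 0.1). C4b ranked 127th of the same 271 genes. Its difference was near the median of 1.58 of those 271 genes, and the median of all 389 listed genes was 1.14.

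For both C3 and C4b the direction was the common one in the age table. Of the 389 genes, 69.7% were higher in old mice, and in 65.6% every old mouse was above every young mouse. The 2 members share these features with most listed genes.

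C2 was not listed for age, yet its levels also did not overlap between young and old mice. It stood at 26.24, 28.28 and 20.63 in young mice and at 42.72, 33.15 and 47.13 in old mice. The lowest old mouse was above the highest young mouse, and the old mice spread less than for C3 and C4b, with a highest level 1.42 times the lowest. The mean was 41.0 ± 7.15 in old against 25.05 ± 3.96 in young mice (SD, n = 3 each), a 1.64-fold ratio. The log2 difference was 0.69 (SE 0.20, exact permutation p = 0.1, adjusted p = 0.132 by Benjamini-Hochberg over all 489 genes). All of these genes were listed as changed, 389 of them for age, so adjusted p here and below do not cover all expressed genes. Among the 100 genes listed for 3HB alone, every old mouse was above every young mouse in 9%, or in 14% of the 57 that were lower in 3HB mice. The median age difference of those 57 genes was 0.28. With levels rescaled to the 100 genes outside the age table, which themselves stood 0.20 higher in old mice on the log2 scale, the C2 difference was 0.49 and the groups overlapped (exact permutation p = 0.2). These 100 genes include C2 itself, and they were listed for a difference from the same old mice. Their shift is therefore not an independent reference for C2. The same scaling left C3 at 2.72 and C4b at 1.47.

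**Figure D2:**
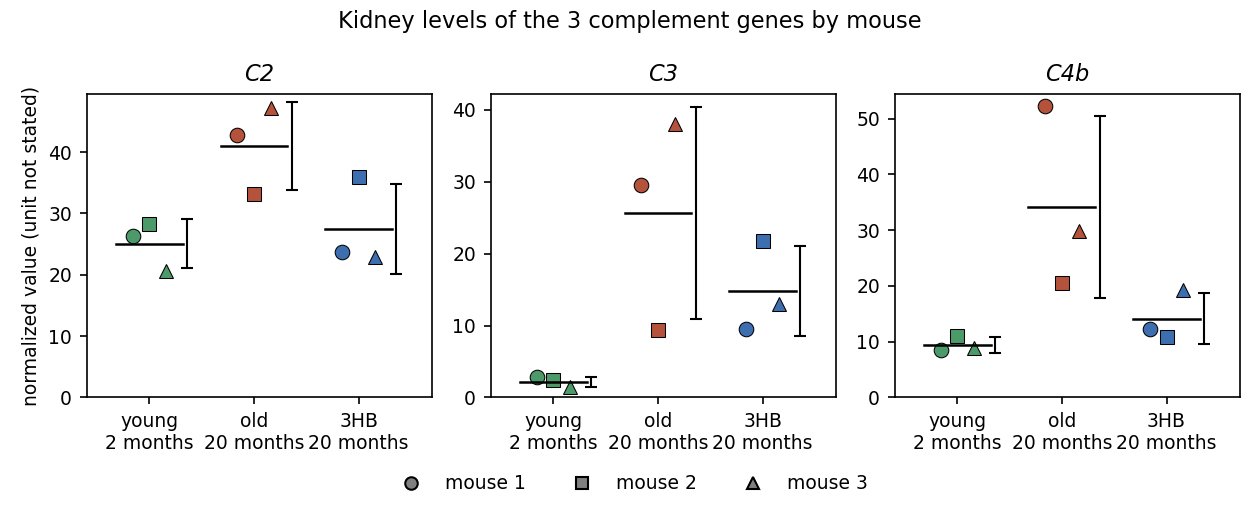
Deposited normalized levels (y axis, linear, unit not stated) of C2, C3 and C4b in each mouse of the young, old and 3HB groups (x axis), with a symbol for each mouse, a line for the group mean and a bracket for its SD. Old mice lie above young mice in all 3 panels, and the 3HB mice lie below the old mice without overlap for C4b alone.

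Between 3HB and old mice, C4b had the largest difference of the members. Its level stood at 12.31, 10.88 and 19.29, below the 20.53 of the lowest old mouse. The highest 3HB mouse and the lowest old mouse were thus close. The mean was 14.2 ± 4.50 (SD, n = 3), and the mean of old mice was 2.42 times as high. The log2 difference between 3HB and old mice was -1.15 (SE 0.45, exact permutation p = 0.1, adjusted p = 0.337). C4b ranked 5th among the 70 genes that were lower in 3HB mice in that table.

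C2, the protease precursor that pairs with C4, was also listed as lower in 3HB mice, but the groups overlapped. Its level was 23.68, 35.95 and 22.86 in 3HB mice. 3HB mouse 2 exceeded old mouse 2 (33.15), while the other 3HB mice were below every old mouse. The mean was 27.5 ± 7.33 (SD, n = 3), with the mean of old mice 1.49 times as high, and the log2 difference was -0.57 (SE 0.25, exact permutation p = 0.2, adjusted p = 0.489). With levels rescaled to the 244 genes listed for age alone and above 0 in every mouse, the difference was again -0.57, but the groups no longer overlapped (exact permutation p = 0.1). C2 ranked 35th of the 70 genes, near their median of -0.56, and the median of all 113 listed genes was -0.42.

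Of the 113 genes in the 3HB table, 61.9% were lower in 3HB than in old mice, and in 51.3% every 3HB mouse was below every old mouse. On the deposited scale C4b was among the latter and C2 was not.

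C3 was not listed for 3HB, and its 3HB and old mice overlapped. Its level was 9.59, 21.69 and 13.05 in 3HB mice, all above the lowest old mouse (9.36) and below both other old mice. The mean was 14.8 ± 6.23 (SD, n = 3), and the mean of old mice was 1.73 times as high. The log2 difference was -0.62 (SE 0.67, exact permutation p = 0.5, adjusted p = 0.759), smaller than its own standard error. It depended on single mice, being -1.20 without old mouse 2 and -0.25 without old mouse 3. Without old mouse 1 it was -0.42 and without 3HB mouse 1 it was -0.37, and between group medians it was -1.12. Among the 258 genes listed for age alone and higher in old mice, 46.1% were lower in 3HB than in old mice, in 5.81% every 3HB mouse was below every old mouse, and the median difference was 0.03.

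**Figure D3:**
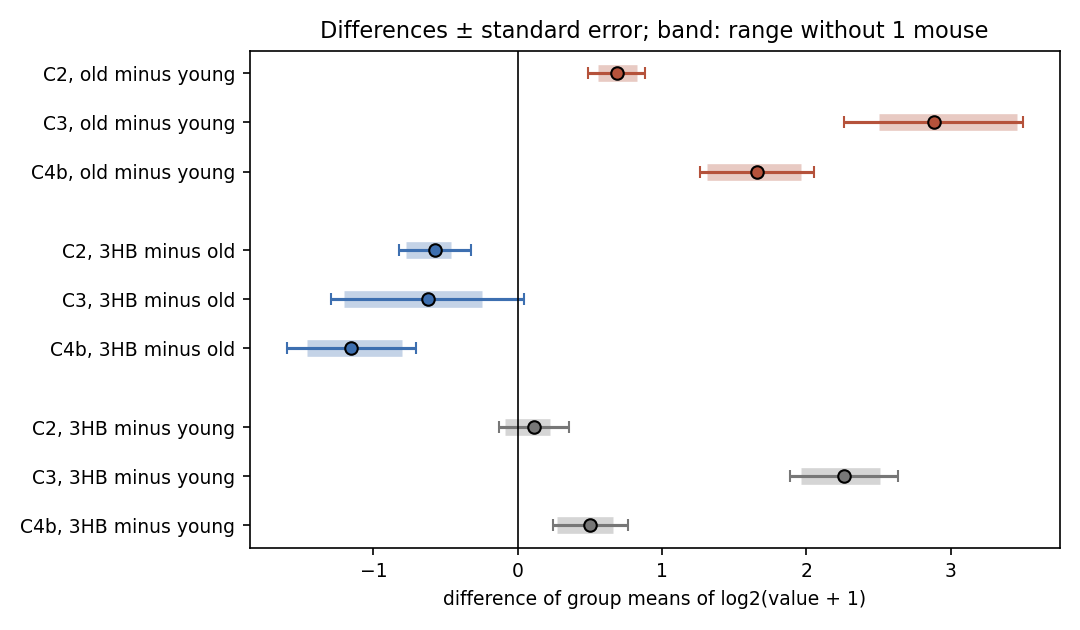
Differences between group means of log2(level + 1) for C2, C3 and C4b (x axis) in the 3 contrasts, with bars for the standard error and bands for the range when 1 mouse was left out. The age difference is largest for C3 (2.88) and the difference between 3HB and old mice is largest in size for C4b (-1.15).

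Against young mice, the members took different positions in 3HB mice. C3 remained higher, with every 3HB mouse above every young mouse, a 6.75-fold ratio of means and a log2 difference of 2.26 (SE 0.37, exact permutation p = 0.1, adjusted p = 0.137). C4b was 0.50 higher on the log2 scale (SE 0.26, exact permutation p = 0.2, adjusted p = 0.238), and the groups overlapped narrowly, since 3HB mouse 2 (10.88) was below young mouse 2 (11.08). Without 3HB mouse 3 this C4b difference was 0.27, and without 3HB mouse 2 it was 0.66 and the groups no longer overlapped. C2 differed by 0.11 (SE 0.24, exact permutation p = 0.8, adjusted p = 0.815) with overlapping groups, and the sign turned to -0.091 without 3HB mouse 2. Every 3HB mouse was above every young mouse in 87.5% of the 271 genes higher with age and in 29.2% of the 113 genes of the 3HB table. Differences among the members in their response were not tested.

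**Figure D4:**
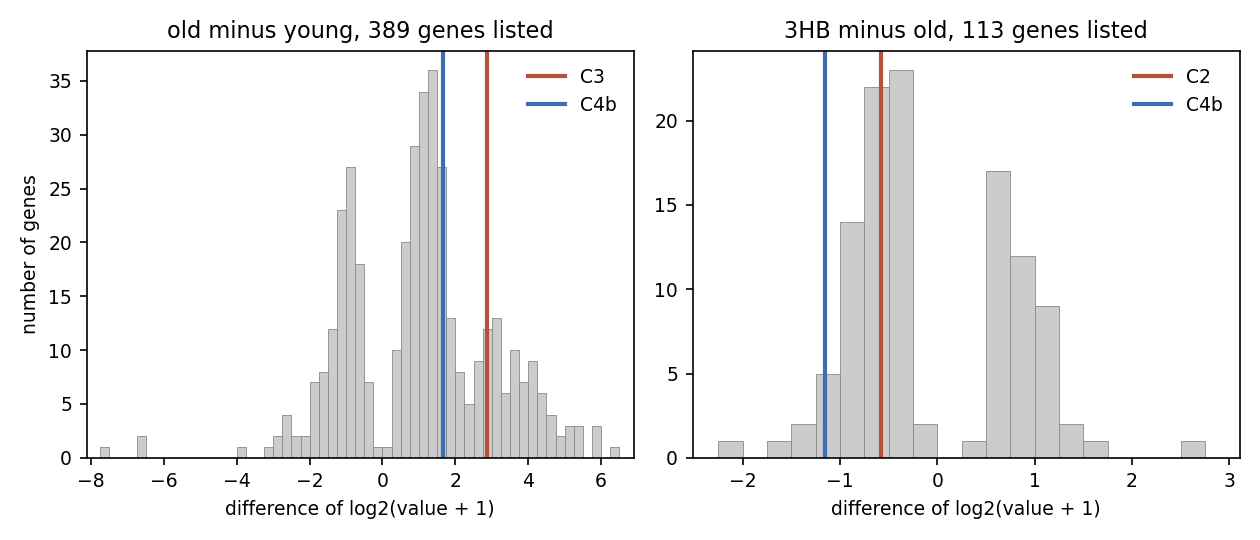
Number of listed genes (y axis) by difference of log2(level + 1) (x axis), for the 389 genes of the age table on the left and the 113 genes of the 3HB table on the right, with lines at the members listed there. C3 (2.88) lies to the right of C4b (1.66) in the age table, and C4b (-1.15) lies to the left of C2 (-0.57) in the 3HB table, where few genes lie further left.

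The mice within a group did not rank alike for the members. Old mouse 2 had the lowest level of the old mice for C2, C3 and C4b. It was also the lowest of the old mice for 180 of all 489 genes (36.8%), and 3HB mouse 2 was the highest of the 3HB mice for 239 of them (48.9%). The highest old mouse was mouse 3 for C2 and C3 and mouse 1 for C4b. Among 3HB mice, C2 and C3 were highest in mouse 2, whereas C4b was lowest in that mouse and highest in mouse 3.

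Of the other complement genes, 2 were listed, and both were higher in old mice. The 5 complement lists hold 59 genes, of which 5 were listed, 4 for age (all higher in old mice without overlap, median 1.56) and 2 for 3HB (both lower). These few genes stand beside 69.7% higher and 65.6% higher without overlap in the whole age table, and 61.9% lower in the whole 3HB table. Masp2 encodes a serine protease of the lectin pathway that cleaves C4 and C2. It stood at 0.93, 0.59 and 1.50 in young mice, 2.63, 5.47 and 4.65 in old mice and 3.82, 8.52 and 5.24 in 3HB mice. Masp2 was thus higher with age (log2 difference 1.37, SE 0.31), and its 3HB levels overlapped those of old mice with a difference of 0.37 (SE 0.38, exact permutation p = 0.5).

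Cfi encodes factor I, the protease that inactivates C3b and C4b. Its level was 0.49, 0.33 and 2.07 in young mice, 3.89, 2.62 and 6.30 in old mice and 1.36, 3.92 and 2.43 in 3HB mice. The age difference was 1.47 (SE 0.48), and 3HB mice differed from old mice by -0.57 with overlap (SE 0.42, exact permutation p = 0.3). By role, 3 of 20 genes of the classical and lectin pathways were listed (C2, C4b and Masp2), 1 of 4 of C3 and the alternative pathway (C3), 1 of 19 regulators (Cfi), 0 of 7 terminal components and 0 of 9 receptors. An unlisted gene was not called changed by the authors, and its level is not analysed here.

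The annotation deposited with the tables places 11 listed genes in the KEGG pathway of complement and coagulation cascades. For age, 9 of them were listed, with a median difference of 1.47, 8 of them in the direction of C3 and 1 in the opposite direction, against 69.7% higher in old mice over the whole age table. Fga, Fgb and Fgg, which encode the chains of fibrinogen, were all among the higher ones. Fgg had the largest difference of the 3 and stood at 1.10, 0.84 and 2.10 in young mice, 20.20, 3.99 and 31.81 in old mice and 4.94, 12.88 and 2.19 in 3HB mice. Its age difference was 2.73 (SE 0.85), and the difference between 3HB and old mice was -1.24 (SE 1.03, exact permutation p = 0.3). As for C3, old mouse 2 was the lowest old mouse and 3HB mouse 2 the highest 3HB mouse.

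Fga, listed for age, stood at 3.99, 5.33 and 6.99 in young mice, 16.68, 10.21 and 33.95 in old mice and 10.11, 28.36 and 6.35 in 3HB mice, the same order of mouse 2 within both older groups. The age difference was 1.59 (SE 0.52), and Fgb was 0.64 higher in old mice. Serpine2, an inhibitor of thrombin and plasminogen activators, was 1.38 higher in old mice (SE 0.43) and 0.44 higher in 3HB than in old mice (SE 0.30). A2m, a broad protease inhibitor, was the gene lower with age, with a log2 difference of -1.08 (SE 0.26). Plau, the urokinase plasminogen activator, was listed for 3HB alone and went the other way from C2 and C4b. It was between 368.61 and 503.65 in 3HB mice against 176.60 to 258.69 in old mice, with a log2 difference of 1.03 (SE 0.21).

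Of the pathway genes, 7, C3 included, were listed for age alone and higher in old mice. Of these, 5 were lower and 2 higher in 3HB than in old mice, 0 of them without overlap, and the median difference was -0.51. Over all 258 such genes, 46.1% were lower and 5.81% were lower without overlap. Old mouse 2 was the lowest old mouse for 8 of the 11 pathway genes, and 3HB mouse 2 was the highest 3HB mouse for 7 of them, against the shares of 36.8% and 48.9% over all listed genes.

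**Figure D5:**
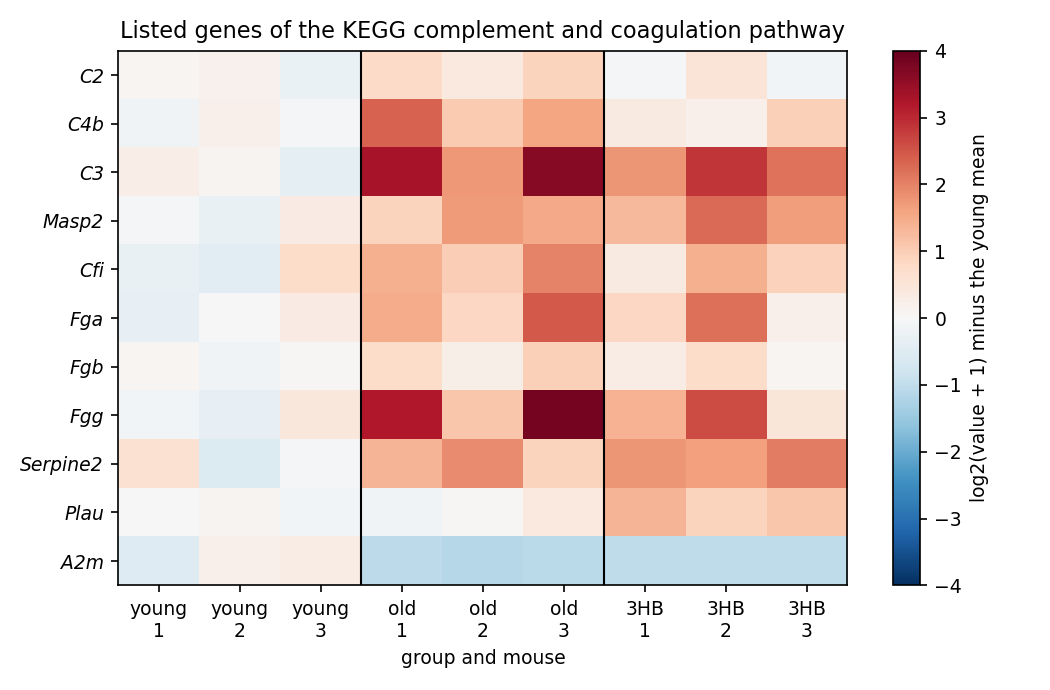
Levels of the 11 listed genes of the KEGG complement and coagulation pathway in each mouse, coloured by log2(level + 1) minus the gene's mean in young mice, with red for higher and blue for lower. C3 and Fgg are the darkest red in old mice 1 and 3, and A2m is blue in both older groups. Plau is redder in the 3HB mice than in its own young and old mice, and it is faintly red in old mouse 3.

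The listed genes whose levels most resembled each member were ranked by Pearson's r of log2(level + 1) over the 9 mice, as a description without a test. The 9 points include the group differences for which the genes were listed. For C2 these were Tapbp (r = 0.943), Cd74 (0.892), Mdk (0.873), Tap2 (0.863) and H2-DMa (0.862). Tapbp, Tap2, H2-DMa and Cd74 act in antigen presentation, and the first 3 are, like C2, genes of the major histocompatibility complex. Tapbp, the peptide loading factor tapasin, stood at 27.60, 36.55 and 26.66 in young, 46.37, 35.65 and 45.42 in old and 29.72, 35.50 and 27.35 in 3HB mice. As for C2, old mouse 2 was the lowest old mouse and 3HB mouse 2 the highest 3HB mouse. The median r of C2 with all other listed genes was 0.357.

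For C3 the nearest genes were Ccl2 (r = 0.971), Vcam1 (0.957), Ankrd6 (0.953), Zfp979 (0.941) and Smoc1 (0.939), against a median of 0.690 over all other listed genes. Ccl2, a chemokine that attracts monocytes, stood at 0.27, 0 and 0.29 in young, 13.78, 3.35 and 13.83 in old and 5.62, 8.67 and 7.96 in 3HB mice. Vcam1, an adhesion molecule for leukocytes, stood at 1.45, 0.90 and 1.23 in young, 14.37, 7.58 and 12.79 in old and 6.97, 7.49 and 7.44 in 3HB mice. In both, as in C3, every 3HB mouse was above every young mouse and old mouse 2 was the lowest old mouse. Vcam1 differed from C3 in that every 3HB mouse was below every old mouse.

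For C4b the nearest were Bcl2a1a (r = 0.961), Ubd (0.922), Pglyrp2 (0.912), Gbp5 (0.907) and Cxcl11 (0.906), against a median of 0.446. Bcl2a1a, a survival factor with near-identical copies in the mouse genome and so an uncertain level, stood at 0, 0.08 and 0 in young, 1.98, 0.62 and 1.90 in old and 0.33, 0 and 0.89 in 3HB mice. Ubd, a ubiquitin-like protein induced by interferon-γ, stood at 0.29, 0.84 and 0.24 in young, 12.33, 2.02 and 15.63 in old and 1.29, 1.71 and 2.31 in 3HB mice. In Ubd the groups overlapped, unlike in C4b, since 3HB mouse 3 exceeded old mouse 2. By rank correlation, 2 of the 5 genes stayed among the nearest 5 for C2, 2 for C3 and 3 for C4b. With genes limited to a highest group mean of at least 1, all 5 stayed for C2 and for C3 and 3 for C4b, since Pglyrp2 and Cxcl11 averaged 0.56 and 0.60 in old mice.

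A promoter sequence was found for 14 of 26 genes, namely the members, the other KEGG pathway genes and the genes nearest each member, and for C3 among the members. Of the 14, 5 held the C/EBP letters (C3, Fga, Fgb, Ankrd6 and Pglyrp2), 4 GAS, 3 the NF-κB motif, 1 the interferon regulatory factor motif and 0 TATAAA. The shares over all 32851 promoters were 9.56%, 7.02%, 7.25%, 2.98% and 12.4% in the same order. With so few genes, some of them picked for likeness to the members, the counts are a description and were not tested. GAS letters stood in Fga, Fgb, Masp2 and Gbp5.

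Genes of antigen presentation and the interferon-γ response are given beside the members because they were listed with them. Of 11 genes of MHC class II, 7 were listed, 6 for age (all higher in old mice, median 1.60) and 4 for 3HB (all lower, median -0.92). H2-Ab1, a class II chain, averaged 46.1 ± 18.5 in the young group, 165.9 ± 64.4 in the old group and 86.0 ± 5.10 in the 3HB group (SD, n = 3 each). Of 34 interferon-γ inducible genes, 17 were listed, 13 for age (all higher, median 1.15) and 9 for 3HB (all lower, median -0.90). Gbp2, an interferon-induced GTPase, averaged 1.27 ± 0.493, 5.05 ± 2.81 and 1.94 ± 0.378 in the same groups. Of 29 acute phase and NF-κB genes, 6 were listed, each for age alone and each higher (median 2.04), and all 6 had lower means in 3HB than in old mice (median -0.46), 1 of them without overlap (Vcam1). Over all genes, 69.7% of the age table was higher in old mice, 61.9% of the 3HB table was lower in 3HB mice, and of the 258 genes listed for age alone and higher in old mice 46.1% were lower in 3HB mice, 5.81% without overlap.

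As for the members, old mouse 2 was low in these lists. Old mouse 2 was the lowest old mouse for 7 of 7 class II genes, 16 of 17 interferon-γ inducible genes and 6 of 6 acute phase genes, against 36.8% of all listed genes. 3HB mouse 2 was the highest 3HB mouse for 6 of 6 acute phase genes, 3 of 7 class II genes and 6 of 17 interferon-γ inducible genes, against 48.9% of all listed genes. The acute phase genes are Fga, Fgb, Fgg, Ccl2, Ccl7 and Vcam1. Of these, the fibrinogen genes are also in the KEGG pathway, and Ccl2 and Vcam1 were named for their likeness to C3. Cd74 and H2-DMa of the class II list were named for their likeness to C2. So were Tapbp and Tap2 of the interferon-γ list, and Ubd, Gbp5 and Cxcl11 of that list for their likeness to C4b. The counts of all 3 lists are thus not separate evidence. The summed level of each list was higher in every old mouse than in every young mouse, as for C2, C3 and C4b, and its part in the members' differences was not tested. The class II sum was 158.5 to 321.6 in young, 447.9 to 979.9 in old and 367.8 to 389.0 in 3HB mice, and the interferon-γ sum was 77.2 to 92.9, 112.0 to 226.4 and 86.8 to 107.0. The interferon-γ sum in 3HB mice thus overlapped that of young mice. Within the 3HB group it was lowest in mouse 3, where C4b was highest. In both groups this sum was mostly Tapbp, Psmb8 and Psmb10, with means of 30.9, 13.3 and 15.6 in 3HB mice and 30.3, 12.7 and 17.5 in young mice. Every 3HB mouse was above every young mouse in Cxcl11, Gbp10, Ifi47, Tap2 and Ubd, and in no other gene of the list. The acute phase sum was 6.96 to 10.74 in young, 25.90 to 96.15 in old and 24.70 to 60.58 in 3HB mice, so that, as for C3, every 3HB mouse was above every young mouse.

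Markers of cells other than the nephron are given for the same reason, since in bulk tissue fewer cells of a type and less RNA per cell cannot be told apart. Of 22 macrophage genes, 2 were listed, Lyz2 and Mmp12. Lyz2, which encodes a lysozyme of macrophages, stood at 7.54, 8.12 and 8.69 in young, 72.01, 22.92 and 29.95 in old and 34.25, 42.87 and 37.33 in 3HB mice. Mmp12, a macrophage elastase, stood at 0.74, 0.26 and 0.74 in young, 3.63, 1.99 and 2.89 in old and 2.31, 1.19 and 0.89 in 3HB mice. Between 3HB and old mice Lyz2 differed by 0.04 and Mmp12 by -0.66, both with overlapping groups. The sum of both, which is mostly Lyz2, was 8.28 to 9.43 in young, 24.91 to 75.64 in old and 36.56 to 44.06 in 3HB mice. It was thus higher in every old and every 3HB mouse than in every young mouse, and it was highest in old mouse 1, the mouse with the highest C4b. Among 3HB mice the sum was highest in mouse 2 (44.06), where C4b was lowest (10.88).

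Of 22 B and plasma cell genes, 13 were listed, all for age and all higher with age (median 2.93), and 9 of the 13 were higher in 3HB than in old mice (median 0.23). Over all genes, 69.7% of the age table was higher with age, and 46.1% of the 258 genes listed for age alone and higher in old mice were lower in 3HB mice. Of 10 T cell genes 1 was listed, Cd8a, with a lower mean in old mice but overlapping groups, since young mouse 2 (0.47) lay within the old range (0.33 to 0.80). None of 5 hepatocyte, 7 neutrophil or 6 skeletal muscle genes was listed. Of 9 proximal tubule genes, 2 were listed, and 0 of 7 genes of other nephron segments, so the tissue could be checked only in part. Keg1, a kidney-expressed gene, was lower in every old mouse than in every young mouse (log2 difference -0.69), and Lrp2, which encodes the tubular receptor megalin, was higher in every 3HB mouse than in every old mouse (0.66). Of 12 tubular injury genes, 6 were listed, all for age, 5 higher and 1 lower in old mice (median 1.66), beside the same 69.7%. The part of these cells in the differences of C2, C3 and C4b was not tested.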

How the data were processed

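Kidney RNA from 9 mice was sequenced by the authors in paired reads of 150 bp. The RNA-seq methods name muscle, whereas the labels name kidney. The submitters' processing notes name CASAVA, HISAT2, StringTie and GRCm38. The values deposited are normalized levels (other unit, not stated as TPM or FPKM) of called genes only. The test and threshold of the calls are not given in the sources used here. Per the labels each sample is a separate mouse.

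Group means of log2(value + 1), SEs and two-sided exact permutation tests over all 20 divisions of 3 against 3 mice were computed for the 489 genes in Python 3.11.15 (numpy 2.4.6, pandas 2.3.3, scipy 1.17.1), with Benjamini-Hochberg adjustment over all 489. Scripts were tested on simulated data. No model across all genes or normalization could be fitted, because genes that were not called are not listed. Alternatives were pseudocount 0.1, group medians, ratios of means, rescaling, leaving out each mouse, and a replicate block.

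Members and gene lists were chosen with earlier results of these data known. The named genes were the members, other listed complement or KEGG complement and coagulation genes, the 5 genes nearest each member by correlation, and up to 4 examples of other lists.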

Additional observations from a re-analysis of the deposited data

How the results depend on the processing

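The signs of the C2, C3 and C4b differences between old and young mice and between 3HB and old mice were the same under every alternative run. The difference of C2 between 3HB and young mice (0.11) reversed to -0.14 with the median of the mice, to -0.091 without 3HB mouse 2 and to -0.017 without young mouse 3. Leaving out each mouse gave 0.56 to 0.83 for C2, 2.50 to 3.46 for C3 and 1.31 to 1.96 for C4b in old against young mice, and -0.78 to -0.46, -1.20 to -0.25 and -1.46 (without old mouse 2) to -0.81 (without old mouse 1) in 3HB against old mice. Against young mice, 3HB mice gave -0.091 to 0.22 for C2, 1.96 to 2.51 for C3 and 0.27 to 0.66 for C4b. With the KEGG pathway in place of the complement lists, 9 genes were listed for age (4 by the lists), and with a limit of 1 on the log2 scale 1 complement gene was listed for 3HB (2 without). Rescaling was not run for 3HB against young mice, for which no reference genes were defined. Equal replicate numbers did not pair the mice (correlations of deviations from -0.24 to 0.16). With the replicate block the differences were the same, and the exact sign-flip permutation p cannot go below 0.25 (0.25 for C3 in old against young mice). The cause of these changes was not tested. With 3 mice a group, no difference could reach an exact permutation p below 0.1. The depth is also unknown, and values are given for called genes only.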

Other observations

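The deposited Reactome annotation placed 33 listed genes in the complement cascade, and 28 of them were immunoglobulin genes, which carry this annotation because bound antibody starts the classical pathway. In each of the 28, every old mouse stood above every young mouse, with a median log2 difference of 3.36, against 65.6% of all genes in the age table. Between 3HB and old mice, 22 of the 28 were higher and 6 lower in 3HB mice, with a median of 0.42, against 46.1% lower among the 258 genes listed for age alone and higher in old mice, whereas C2, C3, C4b and Cfi each had a lower mean and Masp2 a higher mean in 3HB mice. Immunoglobulin variable genes are similar in sequence, so reads can be divided among them and their levels are uncertain. These genes were chosen after their values were seen, and their difference from C2, C3 and C4b was not tested.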
